A study of Mus musculus with 18 samples.

Results

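The insulin-like growth factor (IGF) binding protein genes, Igfbp1 to Igfbp7, were followed in liver RNA of 18 mice. They were chosen by gene name, and all 7 were among the 32285 genes of the count table. All 7 also passed the filter on low counts, which kept 13356 genes for testing. The rule goes by name alone, but the family was taken up with earlier results of these data known.

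Each of the 3 groups held 6 libraries, and every animal is labelled wild-type B6D2F1, the F1 of C57BL/6 and DBA/2. Space pups and Ground pups were offspring of germline stem (GS) cells, cultured spermatogonial stem cells from testes of newborn DBA/2 mice. For 6 months these cells were kept frozen, either aboard the International Space Station (Space) or on Earth (Ground), and they were then transplanted into the testes of infertile W mice, which were mated with C57BL/6 females. The pups were killed at 10 weeks of age, and BDF1 mice, whose age is not stated, were the untreated controls. The GS cell line of the study carried an EGFP transgene under the actin promoter, and the labels do not say which pups inherited it. They also do not give litters or fathers, so p-values measure the spread between these libraries.

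Replicates 1 to 3 and replicates 4 to 6 of every group were treated as separate sets of 3 libraries. The labels give no sex, although the study used both. Xist, the RNA that coats the inactive X chromosome, had 0 to 187 counts in replicates 1 to 3 and 12218 to 21557 in replicates 4 to 6, while the summed Y-linked genes had 1822 to 2482 and 0 to 26 counts. The sets also differed in clock output: Dbp was at 0.836 to 6.02 CPM in replicates 1 to 3 and at 72.1 to 206 in replicates 4 to 6, where CPM scales counts to a common library size with TMM factors. Sex, time of collection and any other property that goes with the numbers therefore cannot be told apart between the sets, and groups were compared inside them. Total counts ranged from 15407450 to 20562351 per library, and the 3 counts that a value of 0 allows are 0.134 to 0.234 CPM. This limit covers counting error only. All 9 hepatocyte markers in the file were well above it, the lowest being Asgr1 at 324 to 1168 CPM.

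IGF binding proteins are secreted proteins that hold IGF1 and IGF2 in blood and tissue and set how much reaches the IGF1 receptor. The liver is the main source of circulating IGF1 and secretes several of the binding proteins. Igfbp1 is known as a gene of hepatocytes that insulin represses and fasting induces, while Igfbp3 is known to be made in liver by cells other than hepatocytes and to form the large circulating complex with IGF and the acid labile subunit.

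Igfbp1 and Igfbp3, and likewise Igfbp2 and Igfbp5, are neighbours (mm10, GENCODE M21). Igfbp1 (ENSMUSG00000020429, chr11:7197782-7202546, plus strand) and Igfbp3 (ENSMUSG00000020427, chr11:7206086-7213923, minus strand) point towards each other with 3539 bases and no gene between them. Igfbp2 (ENSMUSG00000039323, chr1:72824503-72852474, plus strand) and Igfbp5 (ENSMUSG00000026185, chr1:72857932-72874884, minus strand) do the same with 5457 bases between them. Igfbp4 (ENSMUSG00000017493, chr11:99041244-99054392, plus strand), Igfbp6 (ENSMUSG00000023046, chr15:102144362-102149511, plus strand) and Igfbp7 (ENSMUSG00000036256, chr5:77349240-77408041, minus strand) stand alone. Of the Igfbp7 exons, 85 bases are shared with Polr2b on the opposite strand, and the strand setting of the counting is not stated.

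The 250 bases before the RefSeq start site of Igfbp1 and Igfbp2, the members with the lowest adjusted p-values between groups, are given here as the reference sequence of GRCm38.p6. Igfbp1 lies at chr11:7197537-7197786 and Igfbp2 at chr1:72824230-72824479, both on the plus strand. Capitals mark the core of the insulin response element, CAAAACA.
Igfbp1: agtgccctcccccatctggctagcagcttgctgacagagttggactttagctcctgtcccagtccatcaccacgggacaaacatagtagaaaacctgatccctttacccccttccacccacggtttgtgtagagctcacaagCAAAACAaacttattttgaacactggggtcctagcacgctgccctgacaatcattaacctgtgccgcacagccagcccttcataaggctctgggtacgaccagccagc
Igfbp2: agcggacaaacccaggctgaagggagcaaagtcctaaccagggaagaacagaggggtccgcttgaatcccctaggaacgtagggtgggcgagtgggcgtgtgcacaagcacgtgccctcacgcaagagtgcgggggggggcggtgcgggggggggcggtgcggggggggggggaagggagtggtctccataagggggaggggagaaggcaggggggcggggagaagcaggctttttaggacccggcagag

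The motifs named here were searched on both strands of these windows for all 7 genes, which were all found among 32851 promoter entries. CAAAACA occurred in 5.56% of all entries, and among the 7 genes in Igfbp1 alone, from base -108 to base -102. GTAAACA, the core of a FoxO site, occurred in 3.17% of entries and in none of the 7 genes. The E-box CACGTG occurred in 6.02% of entries and in Igfbp2, from base -142 to base -137. TATAAA occurred in 12.4% of entries, in Igfbp4 from base -28 to base -23 and in Igfbp6 on the other strand from base -148 to base -143. A match is a description of these letters, not a binding site.

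Igfbp4 and Igfbp2 made up most of the family's RNA in these livers. Per kilobase of exon, Igfbp4 had a mean of 384 CPM ± 136 (SD, n = 18) and Igfbp2 a mean of 242 CPM ± 68.3, and Igfbp4 was higher in 18 of 18 libraries. Igfbp4 took 46.4% to 64.4% and Igfbp2 took 22.8% to 43.5% of the family's summed level per kilobase.

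Igfbp1 followed at 50.5 CPM per kb ± 37.6 and Igfbp7 at 41.9 ± 6.06. Their order was not fixed, since Igfbp1 was higher in 10 of 18 libraries. Igfbp3 (5.71 CPM per kb ± 2.04) was below Igfbp7 in 18 of 18 libraries and above Igfbp5 (2.52 ± 1.45) in 16. Igfbp6 was last at 1.41 ± 0.861 and was below Igfbp5 in 16 of 18 libraries. Igfbp1 ran from 7.11 to 132 CPM per kb, whereas Igfbp7 stayed between 30.5 and 50.6.

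**Figure D1:**
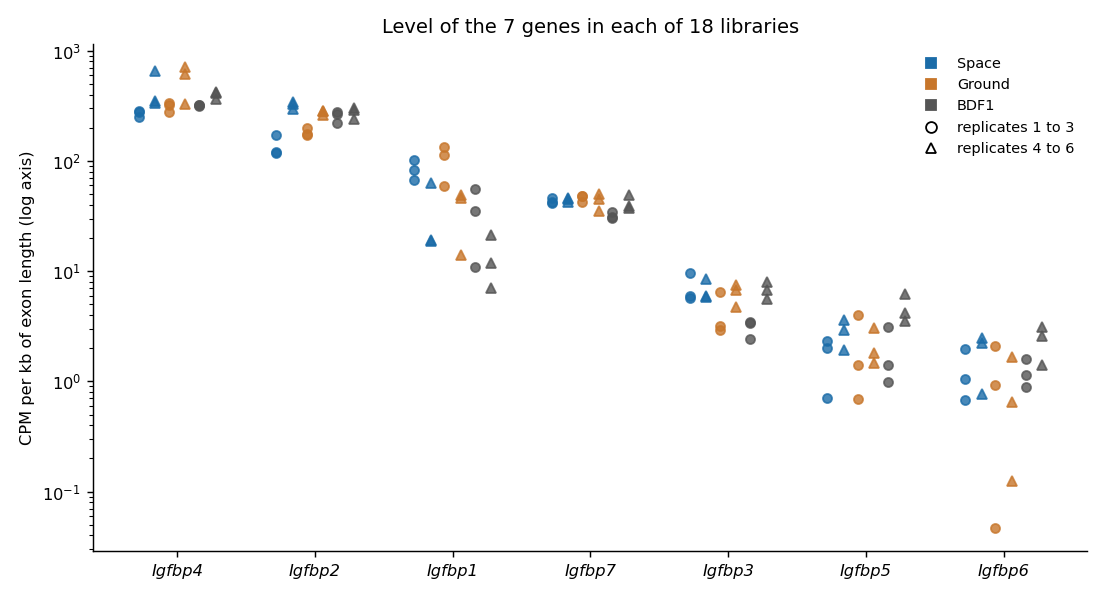
Level of each gene in CPM per kb of exon length (log axis) in 18 libraries, coloured by group, with circles for replicates 1 to 3 and triangles for replicates 4 to 6. Igfbp4 and Igfbp2 are highest in every library, and Igfbp1 spans 7.11 to 132 CPM per kb.

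The replicate sets differed in 4 of the 7 genes. In the mean over the 3 groups, Igfbp1 was lower in replicates 4 to 6 than in replicates 1 to 3 by 1.37 on the log2 scale (log2 change -1.37, SE 0.345), and Igfbp2 (0.65, SE 0.0853), Igfbp4 (0.63, SE 0.145) and Igfbp3 (0.55, SE 0.166) were higher. Benjamini-Hochberg adjusted p-values of edgeR's quasi-likelihood test were 0.00490, 1.84e-05, 0.00265 and 0.0144. The same test called 38% of all genes, and 4 of 7 is not set apart from that share. Igfbp3 lost its call with total counts as the scale (0.30, adjusted p = 0.129) and without the 3 pup libraries highest in Serpina6 (0.45, adjusted p = 0.0862). Igfbp5 (0.71, adjusted p = 0.0877), Igfbp6 (0.41) and Igfbp7 (0.12) were not called by edgeR, but Igfbp5 was called by limma voom (0.88, adjusted p = 0.0378) and by edgeR without Ground replicate 2 (1.02, adjusted p = 0.00886) or BDF1 replicate 1 (0.91, adjusted p = 0.0348), and Igfbp7 without Ground replicate 4 (0.16, adjusted p = 0.0485).

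The study asked whether pups of space-stored cells differ from pups of Earth-stored cells and from BDF1 mice. Between Space and Ground pups, edgeR called 0 of the 7 genes in replicates 1 to 3, where 0.00749% of all genes were called, and 0 in replicates 4 to 6, where 0.0225% were called. DESeq2 also called 0 in both sets. At an unadjusted p under 0.05, Igfbp2 and Igfbp3 passed in replicates 1 to 3 and 0 genes in replicates 4 to 6. The mean of both sets again gave 0 of 7 by either tool (1 at an unadjusted p under 0.05, Igfbp3) beside 0.0225% of all genes.

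Against BDF1 mice, Space pups of replicates 1 to 3 differed in Igfbp2, which was lower, and Igfbp3, which was higher (2 of 7 beside 4.64% of all genes). Ground pups of replicates 1 to 3 differed in Igfbp7, which was higher (1 of 7 beside 1.92%). Among replicates 4 to 6, edgeR called 0 of 7 in Space pups (beside 11.9% of all genes) and 0 of 7 in Ground pups (beside 15.2%). DESeq2 called 0 there too, and Igfbp1 passed an unadjusted p under 0.05 in both. In the means of both sets, Igfbp2 was lower in Space pups (1 of 7 beside 12.9%), and Igfbp1 and Igfbp7 were higher in Ground pups (2 of 7 beside 14.6%). Space and Ground pups were set against the same 6 BDF1 libraries, so these comparisons are not independent.

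**Figure D2:**
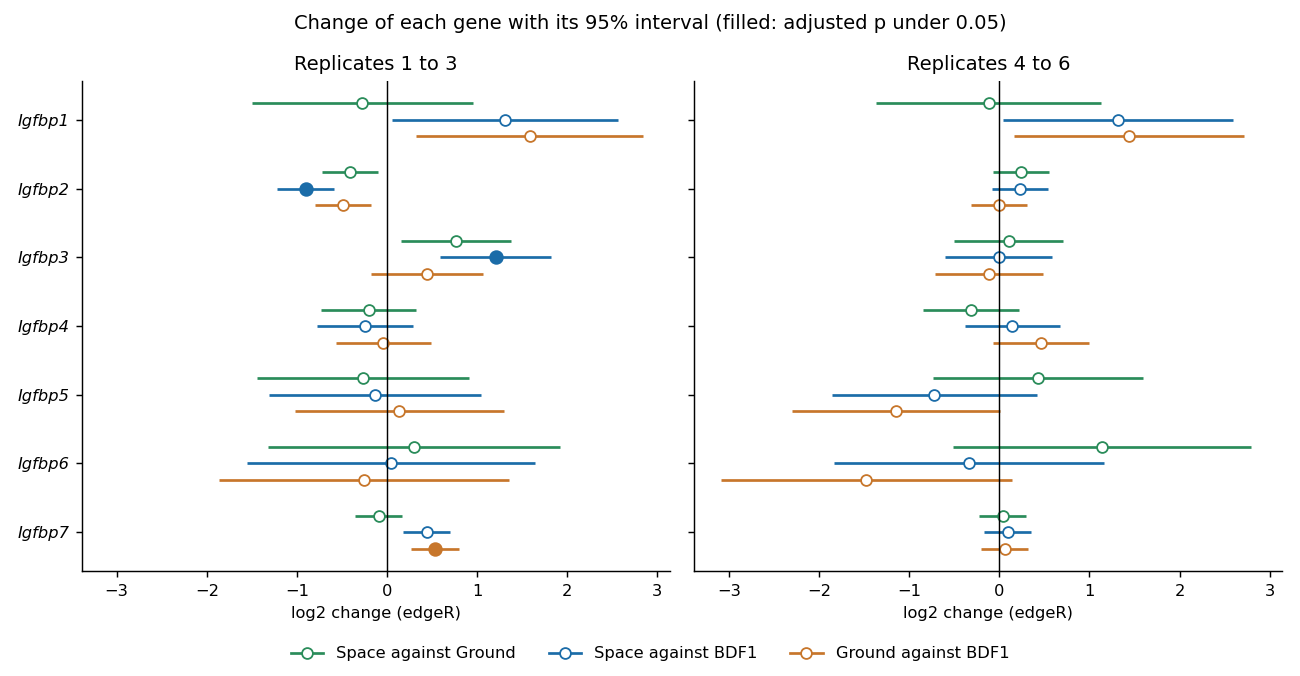
Log2 change of each gene (x axis) with its 95% interval in the 3 comparisons of groups, for replicates 1 to 3 (left) and replicates 4 to 6 (right), with filled points where the adjusted p was under 0.05. The filled points are Igfbp2 and Igfbp3 in Space pups and Igfbp7 in Ground pups, all against BDF1 mice in replicates 1 to 3.

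Igfbp2, a binding protein that hepatocytes secrete in quantity, was called lower in Space pups than in BDF1 mice of replicates 1 to 3. The BDF1 libraries were at 513, 497 and 406 CPM. Ground pups were at 369, 322 and 318 CPM. Space pups were at 316, 219 and 223 CPM. All pups were below all BDF1 mice, and all Space libraries were below all Ground libraries, although the nearest of them (316 and 318 CPM) almost met. With 3 libraries a group, groups can fall apart in this way by chance. The share of all genes that do so is not given, here or for the other members. Against BDF1, Igfbp2 fell by 0.90 in Space pups (log2 change -0.90, SE 0.148, 95% interval -1.22 to -0.59, edgeR adjusted p = 0.00271), a mean 0.535 times that of BDF1. This call was kept under all 28 alternatives, with log2 changes from -1.10 to -0.81 and adjusted p-values of at most 0.0238. In Ground pups the mean was 0.713 times that of BDF1 (log2 change -0.49, SE 0.148, edgeR adjusted p = 0.0999), which DESeq2 called (-0.48, adjusted p = 0.0294) and edgeR did not. Between Space and Ground pups the log2 change was -0.41 (SE 0.148, 95% interval -0.73 to -0.10, edgeR adjusted p = 0.400).

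Replicates 4 to 6 did not show this order of Igfbp2. Space pups were at 638, 608 and 552 CPM. Ground pups were at 481, 522 and 520 CPM, below every Space library. BDF1 mice were at 555, 442 and 532 CPM and overlapped both. Between Space and Ground pups the log2 change was 0.24 (SE 0.147, 95% interval -0.072 to 0.55, edgeR adjusted p = 0.485). Against BDF1, the log2 change of Space pups was 0.23 (SE 0.147, adjusted p = 0.308). That of Ground pups was -0.0050 (SE 0.147, adjusted p = 0.986). With total counts as the scale, Igfbp2 was called lower in Ground pups (-0.48, adjusted p = 0.0194), where the median of all genes was itself at -0.46. It was also called on that scale in the Ground mean of both sets (-0.52, adjusted p = 0.00246).

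The difference between the sets was tested directly. The Space against BDF1 change of Igfbp2 was 1.14 higher in replicates 4 to 6 than in replicates 1 to 3 (log2 scale, SE 0.209, edgeR adjusted p = 0.00711). It was the single gene of the family called in this test (1 of 7 beside 3.19% of all genes), and all 27 alternatives kept it. The same difference for Ground against BDF1 was 0.48 (SE 0.208, adjusted p = 0.237), with 0 of 7 genes called by edgeR and by DESeq2 beside 2.74% of all genes. Igfbp2 and Igfbp7 passed an unadjusted p under 0.05 there. For Space against Ground it was 0.65 (SE 0.208, adjusted p = 0.502), with 0 of 7 called by either tool beside 0% of all genes and only Igfbp2 under an unadjusted p of 0.05. The sum of the hepatocyte markers also differed between these groups and sets, but it was mostly the albumin gene Alb. Over 18 libraries Alb had a mean of 119379 CPM and the sum a mean of 155192 CPM. The sum was 239251 to 298843 CPM in Space pups and 80827 to 104154 CPM in BDF1 mice of replicates 4 to 6. In replicates 1 to 3 it was 96726 to 99104 and 64767 to 82028 CPM. Of the 9 markers, 4 were called higher in Space pups and 5 in Ground pups of replicates 4 to 6, beside 11.9% and 15.2% of all genes. In replicates 1 to 3, 0 were called in either group, beside 4.64% and 1.92%. The difference between the sets was called for 1 of the 9 in Space pups, Alb (1.31, SE 0.345, edgeR adjusted p = 0.0486). It was called for 2 in Ground pups, beside 3.19% and 2.74% of all genes in the Space and Ground tests. With the 10 most abundant genes removed, the markers Alb, Apoa1 and Apoa2 among them, the difference of Igfbp2 was 1.14 (adjusted p = 0.00687). This removal changes only the scale of the libraries. The part of the hepatocyte markers in the difference of Igfbp2 was not tested. BDF1 mice themselves had similar Igfbp2 in both sets, with means of 472 CPM ± 57.5 and 509 CPM ± 59.6 (SD, n = 3), whereas Space pups went from 253 CPM ± 55.0 to 599 CPM ± 43.7. The mean of both sets (-0.33, SE 0.104, adjusted p = 0.0444 in Space pups) averages the called change of replicates 1 to 3 and the uncalled one of replicates 4 to 6, and it lost its own call without any one of Space replicates 2 to 6, Ground replicate 6 or BDF1 replicates 1, 2, 4 and 6 (adjusted p = 0.0504 to 0.107).

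**Figure D3:**
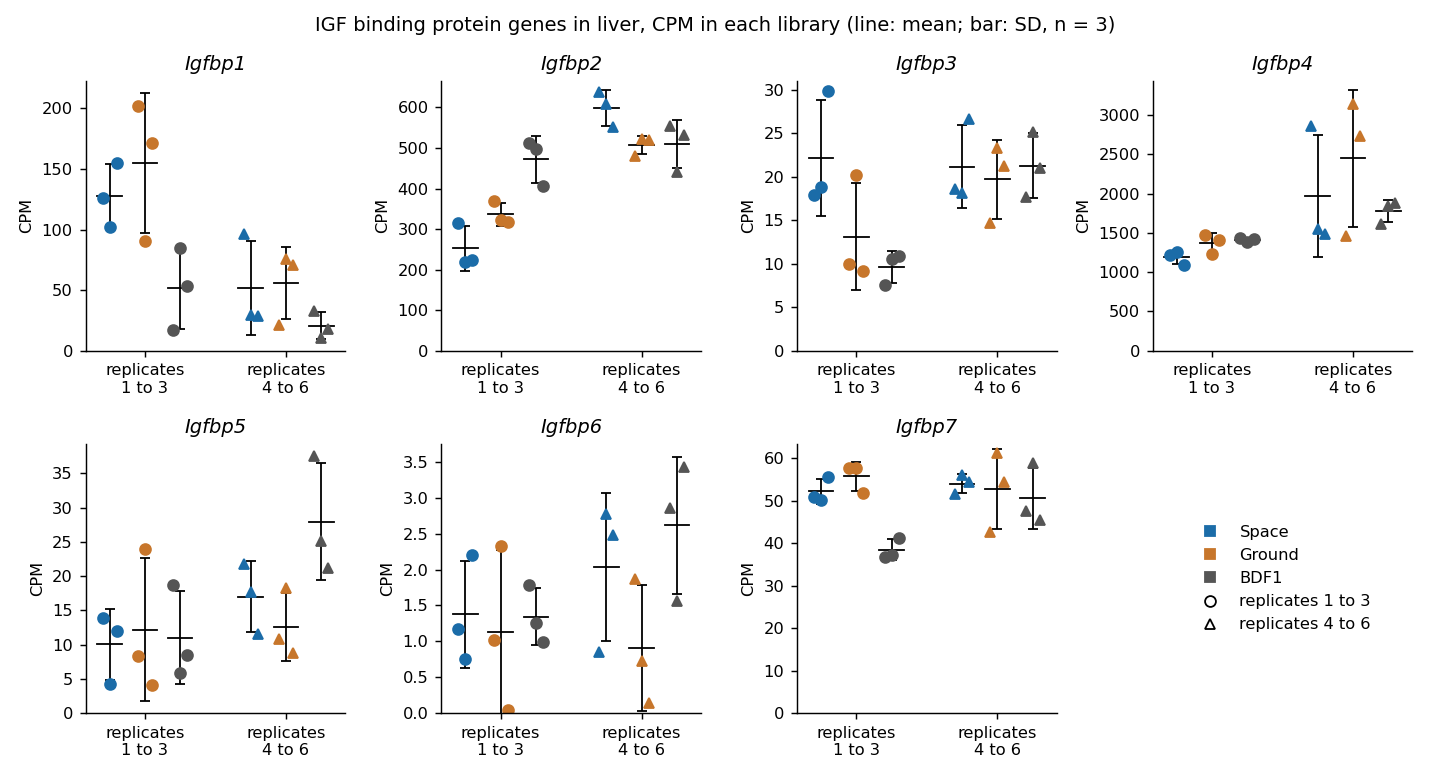
CPM of each gene in every library, by replicate set and group, with the mean (line) and SD (bar, n = 3, cut at 0). In replicates 1 to 3, Igfbp2 steps from 219 to 316 CPM in Space pups to 406 to 513 CPM in BDF1 mice, and Igfbp1 and Igfbp7 of all pups lie above BDF1.

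Igfbp1, the insulin-repressed hepatocyte gene, ran higher in pups than in controls but varied widely inside each group. In replicates 1 to 3 Space pups were at 126, 102 and 155 CPM. Ground pups were at 202, 90.7 and 172 CPM. BDF1 mice were at 16.8, 84.7 and 53.6 CPM, all below the lowest pup. Means were 2.47 times (Space) and 3.00 times (Ground) that of BDF1, yet neither the Space change of 1.31 (log2, SE 0.592, edgeR adjusted p = 0.234) nor the Ground change of 1.58 (SE 0.596, adjusted p = 0.197) passed.

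Igfbp1 in replicates 4 to 6 was at 96.3, 29.3 and 28.9 CPM in Space pups and at 21.4, 75.6 and 70.5 CPM in Ground pups. BDF1 mice were at 32.8, 10.8 and 18.0 CPM and overlapped both. The 3 highest pups, Space replicate 4 and Ground replicates 5 and 6, are the pup libraries highest in Serpina6, described with Igfbp4, and the other 3 pups lay inside the BDF1 range. The log2 changes were 1.32 in Space pups (SE 0.604, edgeR adjusted p = 0.157) and 1.44 in Ground pups (SE 0.604, adjusted p = 0.118). Without those 3 libraries, which leaves 2 Space pups and 1 Ground pup assumed to vary like the other groups, they were 0.50 (adjusted p = 0.590) and 0.063 (adjusted p = 0.980). Without Ground replicate 4, the lowest Ground pup, the Ground change was 1.83 (adjusted p = 0.0453).

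Averaged over both sets, Igfbp1 was higher in Ground pups by 1.51 (log2, SE 0.424, edgeR adjusted p = 0.0253). Space pups gave 1.31 (SE 0.423, adjusted p = 0.0505), which DESeq2 called (adjusted p = 0.0280), as did edgeR without any one of Space replicates 5 and 6, Ground replicates 2 and 4 or BDF1 replicates 2 and 4 (adjusted p = 0.0330 to 0.0459). The Ground call was lost without any one of Ground replicates 1, 5 and 6 or BDF1 replicates 1, 3, 5 and 6 (adjusted p = 0.0517 to 0.0651), and without the 3 pup libraries highest in Serpina6 the change was 0.83 (adjusted p = 0.203). Space and Ground pups did not separate in Igfbp1, with a mean log2 difference of -0.20 (95% interval -1.07 to 0.68).

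Genes that respond to feeding also differed from BDF1 mice in replicates 1 to 3, where 4.64% of all genes were called in Space pups and 1.92% in Ground pups. Among genes that insulin induces, 9 of 11 were higher in the Space pups of replicates 1 to 3 (median log2 change 2.35 beside -0.0036 over all genes), among them Thrsp (4.39), Pklr (2.40) and the fatty acid synthase Fasn (2.52). In Ground pups 3 of 11 were higher, among them Pklr (1.73) and Thrsp (2.77). Of 12 genes that fasting induces or insulin represses, 3 were higher and 2 lower in Space pups, including Foxo3 (0.81), Foxo1 (0.63) and Cpt1a (-0.65), and 3 were higher and 1 lower in Ground pups. Of 14 clock genes 7 were higher in Space pups and 3 in Ground pups, among them Per2 (2.19 in Space pups), Tef (1.21 and 0.75) and Per3 (2.46 and 1.96). Of 12 genes of the amino acid stress response, 1 was higher in Space pups (Nupr1, 3.00) and 2 in Ground pups (Nupr1, 3.95; Atf3, 2.61). In replicates 4 to 6, where 11.9% (Space) and 15.2% (Ground) of all genes were called, 3 insulin-induced genes were higher and 1 lower in Space pups (median 0.59) and 2 higher and 1 lower in Ground pups (median 0.21). Clock genes there were 2 higher and 1 lower in Space pups (median -0.064) and 2 higher and 2 lower in Ground pups (median -0.13). The fasting list had 2 higher and 1 lower in Space pups and 3 higher and 2 lower in Ground pups, and the stress list 2 higher in Space pups and 3 higher and 2 lower in Ground pups. The part of these genes in the results for Igfbp1 and Igfbp2 was not tested.

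Inside groups, the order of Igfbp1 was compared with that of the feeding genes. In 4 of the 6 sets of 3 libraries, the library with the highest sum of the insulin-induced genes had the lowest Igfbp1. With 3 libraries a set, such a match is common by chance. Ground replicate 4, for example, had 14800 CPM of these genes and 21.4 CPM of Igfbp1, beside 2188 and 75.6 CPM in Ground replicate 5, one of the 3 libraries highest in Serpina6. Both pup sets of replicates 4 to 6 are among the 4 and hold those libraries, and in the Space set the lowest Igfbp1 values (28.9 and 29.3 CPM) were nearly tied. In 1 set, Space replicates 1 to 3, the library with the highest sum also had the highest Igfbp1. Between groups of replicates 1 to 3 the order was the other way. Sums were 11786 to 18824 CPM in Space pups, 4233 to 14085 in Ground pups and 1346 to 1653 in BDF1 mice. All of these pups were also above BDF1 mice in Igfbp1. The order inside groups is a description chosen after the values were seen, with no test.

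Igfbp3, the carrier of most circulating IGF, was higher in the Space pups of replicates 1 to 3 than in their BDF1 controls. Space pups were at 17.9, 18.8 and 29.9 CPM. BDF1 mice were at 7.54, 10.5 and 10.9 CPM, below every Space pup. Ground pups were at 9.95, 20.2 and 9.17 CPM and overlapped both. The Space mean was 2.30 times that of BDF1 (log2 change 1.20, SE 0.292, edgeR adjusted p = 0.0273). With 3 libraries a group the call was not stable: it was lost without Space replicate 2 (adjusted p = 0.0501) or 3 (0.138) and without BDF1 replicate 1 (0.110), 2 (0.0767) or 3 (0.0653).

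The 3 groups overlapped in Igfbp3 in replicates 4 to 6, at 18.2 to 26.6 CPM in Space pups, 14.6 to 23.4 in Ground pups and 17.7 to 25.2 in BDF1 mice. The log2 change of Space against BDF1 was -0.0078 (SE 0.282). The difference of this change between the sets was -1.21 (SE 0.405, edgeR adjusted p = 0.112, and 0.0466 without Ground replicate 2). The mean of both sets was 0.60 (SE 0.203, edgeR adjusted p = 0.0610), called by DESeq2 (adjusted p = 0.0299), with no filter on low counts (0.0432) and without Ground replicate 2 (0.0222). Low values thus lay in the BDF1 mice and in Ground replicates 1 and 3 of the first set.

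Igfbp4, an inhibitory binding protein that the protease PAPPA cleaves, was the most abundant member and showed no called difference between groups. In replicates 1 to 3 it was at 1224, 1258 and 1094 CPM in Space pups, 1474, 1233 and 1412 CPM in Ground pups and 1434, 1380 and 1424 CPM in BDF1 mice. All Space pups lay below all BDF1 mice, with a mean 0.844 times theirs (log2 change -0.25, SE 0.251, edgeR adjusted p = 0.643), and Ground pups overlapped both. In replicates 4 to 6 BDF1 mice were at 1612, 1844 and 1880 CPM. Space pups were at 2868, 1552 and 1485 CPM, and Ground pups at 1466, 3140 and 2740 CPM. Space replicate 4 and Ground replicates 5 and 6 thus stood above all other libraries, and the other 3 pups of this set lay below the BDF1 mice. The log2 changes against BDF1 were 0.15 (SE 0.250, adjusted p = 0.739) and 0.46 (SE 0.251, adjusted p = 0.230), and the latter became 0.72 (adjusted p = 0.0305) without Ground replicate 4.

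The 3 libraries with the highest Igfbp4, Space replicate 4 and Ground replicates 5 and 6, were also those with the most Serpina6, the corticosteroid-binding globulin gene. Serpina6 took 3.43%, 3.41% and 2.18% of all counts in them and at most 0.107% in any other library. Ghr, which encodes the growth hormone receptor, was at 3556, 4094 and 2323 CPM in these libraries and at 332 to 634 CPM in the others. Igf2, the fetal ligand, was at 5.78, 9.54 and 20.9 CPM beside at most 1.16 CPM elsewhere. The labels give nothing that sets these animals apart.

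**Figure D4:**
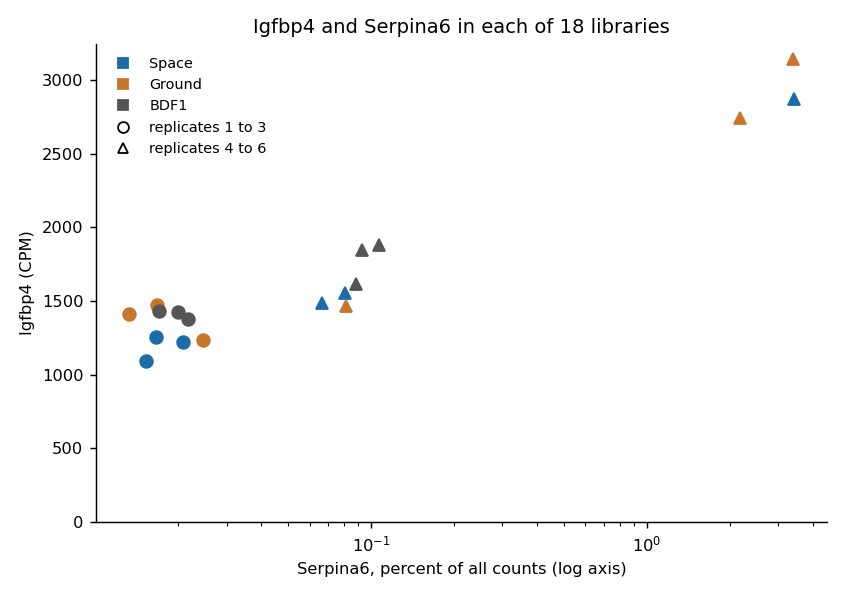
Igfbp4 in CPM (y axis) against Serpina6 in percent of all counts (log x axis) in 18 libraries, coloured by group, with circles for replicates 1 to 3 and triangles for replicates 4 to 6. Space replicate 4 and Ground replicates 5 and 6 lie apart at 2740 to 3140 CPM of Igfbp4.

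Igfbp7, a related protein that binds IGFs with low affinity and is made by vessels and stellate cells, was lowest in the BDF1 mice of replicates 1 to 3. They were at 36.9, 37.3 and 41.3 CPM. Space pups were at 50.8, 50.2 and 55.6 CPM, and Ground pups at 57.7, 57.7 and 51.8 CPM. All pups lay above all BDF1 mice. The change was 0.53 in Ground pups (log2, SE 0.125, edgeR adjusted p = 0.0360) and 0.44 in Space pups (SE 0.125, adjusted p = 0.0560), and DESeq2 called both (adjusted p = 0.00307 and 0.0193). For Space pups edgeR made the call without Ground replicate 4 or 5 or BDF1 replicate 5 (adjusted p = 0.0232 to 0.0423). The Ground call was lost with total counts as the scale (0.46, adjusted p = 0.131), and without Space replicate 2, any one of Ground replicates 1 to 3 or any one of BDF1 replicates 1 to 3 (0.50 to 0.59, adjusted p = 0.0512 to 0.142).

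Igfbp7 overlapped between groups in replicates 4 to 6, at 51.6 to 56.0 CPM in Space pups, 42.7 to 61.2 in Ground pups and 45.5 to 58.7 in BDF1 mice. The Ground against BDF1 change there was 0.059 (SE 0.124), but -0.44 with total counts as the scale (adjusted p = 0.0168), close to the median of all genes on that scale. The mean over both sets was 0.30 in Ground pups (SE 0.0879, adjusted p = 0.0332) and 0.0087 with total counts (adjusted p = 0.953). In Space pups it was 0.27 (SE 0.0879, edgeR adjusted p = 0.0548), which DESeq2 called (adjusted p = 0.0336), as did edgeR with a mean of at least 1 CPM (0.0496), without Ground replicate 4 (0.0246) or 5 (0.0374), without BDF1 replicate 5 (0.0317) and without the 3 pup libraries highest in Serpina6 (0.0274). The Ground call was also lost without any one of Ground replicates 1, 2, 5 and 6 or BDF1 replicates 1, 2, 4 and 6 (adjusted p = 0.0560 to 0.0771), and without the 3 pup libraries highest in Serpina6 (0.15, adjusted p = 0.302).

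The summed markers of stellate cells, which store vitamin A, were also lowest in the BDF1 mice of replicates 1 to 3. Ecm1 and Dcn, with means of 109 and 81.0 CPM, made up most of the sum (mean 304 CPM, n = 18). Of the pups in replicates 1 to 3, Space pups had the higher mean sum (332 beside 283 CPM). Ground pups had the higher mean of Igfbp7 (55.7 beside 52.2 CPM). The summed level of 10 markers, none of them at 0 in any library, was 194 to 230 CPM in BDF1 mice of replicates 1 to 3, beside 314 to 367 in Space pups and 264 to 318 in Ground pups. In replicates 4 to 6 the ranges overlapped (272 to 357, 308 to 340 and 289 to 379 CPM). Of the 10 markers 3 were higher in Space pups of replicates 1 to 3 (Hand2, 1.14; Ecm1, 0.80; Dcn, 0.61) and 1 in Ground pups (Hand2, 1.16), with median log2 changes of 0.66 and 0.45, beside 4.64% and 1.92% of all genes called and medians of -0.0036 and 0.0086 over all genes. Among Space pups of replicates 4 to 6, 0 were higher and 1 lower (Lrat, -1.07, edgeR adjusted p = 0.0457), beside 11.9% of all genes called. In the Ground pups of that set 0 were called, beside 15.2% of all genes. The summed level of 10 endothelial markers was 130 to 134 CPM in Space pups, 145 to 224 in Ground pups and 159 to 181 in BDF1 mice of replicates 1 to 3. In bulk RNA, more cells of a type and more RNA per cell cannot be told apart.

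The relation of Igfbp7 to the stellate sum also held between libraries of the same group and set. After the mean of each of the 6 sets of 3 was taken out of the log2 levels, Igfbp7 and the stellate sum had Pearson's r = 0.823 over 18 libraries (permutation p = 0.00139, adjusted 0.0195 over 14 relations) and Spearman's rho = 0.738 (permutation p = 0.00679, adjusted 0.0945). Without the 2 libraries farthest from the median r was 0.764, and it was 0.755 inside replicates 1 to 3 and 0.873 inside replicates 4 to 6. Igfbp3 gave r = 0.688 with the same sum (permutation p = 0.00894, adjusted 0.0626; rho = 0.682, permutation p = 0.0135, adjusted 0.0945). With the stellate sum Igfbp5 gave r = 0.375 (permutation p = 0.167, adjusted 0.706; rho = 0.420, permutation p = 0.161, adjusted 0.493) and Igfbp6 gave r = -0.0358 (permutation p = 0.901, adjusted 0.901; rho = 0.0010, permutation p = 1.0, adjusted 1.0). With the endothelial sum Igfbp7 gave r = 0.198 (permutation p = 0.562, adjusted 0.787; rho = 0.0650, permutation p = 0.832, adjusted 0.896).

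Igfbp5 and Igfbp6, which bind matrix and prefer IGF2 respectively, were the least abundant members. Igfbp5 was at 13.9, 4.22 and 12.04 CPM in Space pups, 8.43, 23.9 and 4.17 in Ground pups and 18.7, 5.87 and 8.46 in BDF1 mice of replicates 1 to 3, with every pair of groups overlapping. In replicates 4 to 6 BDF1 mice were at 37.5, 25.1 and 21.2 CPM, above all Ground pups at 10.9, 18.2 and 8.77, while Space pups were at 21.8, 17.7 and 11.6. The Ground mean was 0.452 times that of BDF1, without a call (log2 change -1.15, SE 0.544, edgeR adjusted p = 0.167). With total counts as the scale it was called (-1.63, adjusted p = 0.0227).

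Igfbp6 rested on 1 to 68 counts a library, or 0.0521 to 3.43 CPM. Its counts in Ground replicate 3 (1) and Ground replicate 6 (2) were under the 3 counts that a value of 0 allows. Groups overlapped in both sets, and the largest difference, Ground against BDF1 in replicates 4 to 6 (log2 change -1.48, 95% interval -3.09 to 0.14), was not called.

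Igfbp6 was set beside markers of the mesothelium, the cell layer that covers the liver. The 7 markers summed to 1.30 to 13.8 CPM, and Upk1b and Wt1 were each at 0 in 1 library. Ground replicates 3 and 6, lowest in Igfbp6, were also lowest in the sum at 1.30 and 1.59 CPM. With the means of the 6 sets taken out, r was 0.912 and rho 0.833 over 18 libraries. It was 0.834 without the 2 libraries farthest from the median, 0.919 inside replicates 1 to 3 and 0.912 inside replicates 4 to 6. Igfbp5 gave r = 0.740 and rho = 0.676 with the same sum, but 0.901 inside replicates 1 to 3 and 0.277 inside replicates 4 to 6. These values are a description with no test, since Msln, one of the 7 markers, had already been found to be the gene nearest to Igfbp6 in these libraries. All marker relations were computed after that.

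**Figure D5:**
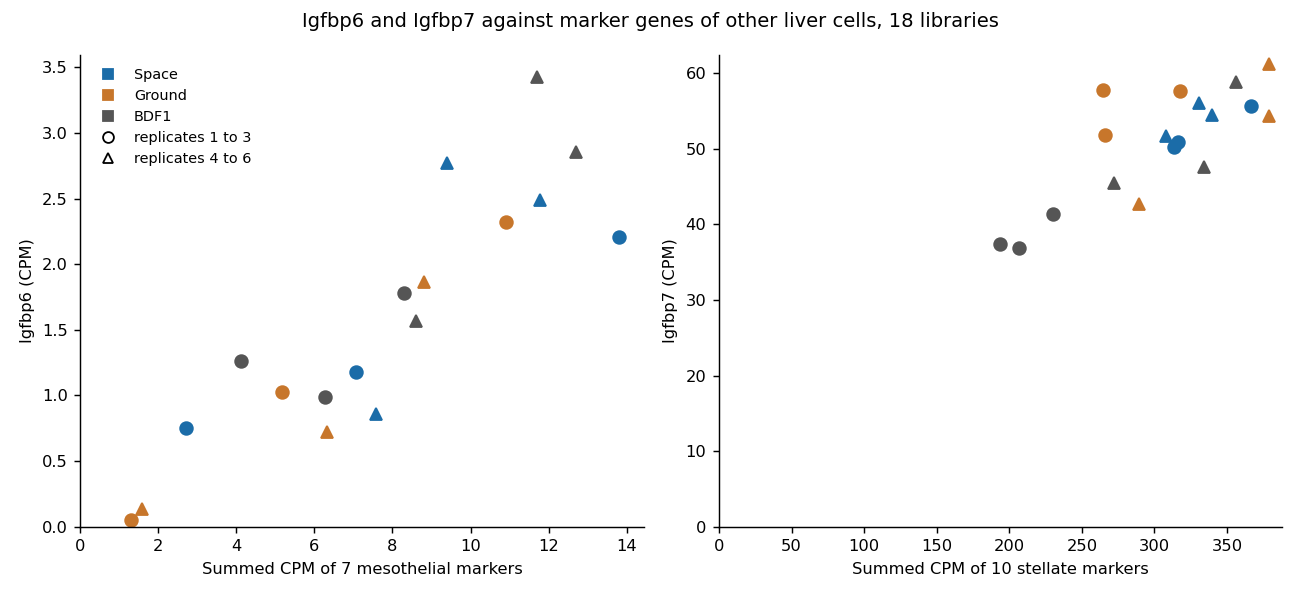
Igfbp6 against the summed CPM of 7 mesothelial markers (left) and Igfbp7 against that of 10 stellate cell markers (right) in 18 libraries, coloured by group, with circles for replicates 1 to 3 and triangles for replicates 4 to 6. Both genes are higher where the markers are higher, and the BDF1 mice of replicates 1 to 3 have the lowest stellate sums, 194 to 230 CPM.

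No relation between neighbouring members was detected. With the same means taken out, Igfbp1 and Igfbp3 had r = 0.0385 (permutation p = 0.885, adjusted 0.901) and rho = 0.0918 (permutation p = 0.738, adjusted 0.890), and r was -0.300 without the 2 farthest libraries. Igfbp2 and Igfbp5 had r = 0.368 (permutation p = 0.252, adjusted 0.706) and rho = 0.375 (permutation p = 0.220, adjusted 0.513), and r was 0.289 without the 2 farthest libraries. These pairs are part of the same 14 relations.

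Genes most alike in pattern were sought by the same residual correlation among 11733 genes, as a description over 18 libraries that share depth and scale. Igfbp1 was nearest to Foxp2 (r = 0.886), Sdc4 (0.880) and E2f8 (0.880). Igfbp4 was nearest to Lifr (0.982), P4hb (0.975) and Pepd (0.973), and Igfbp6 to Msln (0.937), Gpc3 (0.931) and Slpi (0.908). The SD of Igfbp4 was 780 and 875 CPM in Space and Ground pups of replicates 4 to 6 and at most 145 CPM in the other sets. Those pup sets hold the 3 libraries highest in Serpina6, and r without them was not computed. Igfbp2 was nearest to Zbtb22 (0.813), Kti12 (0.801) and Gm14325 (0.789), and Igfbp3 to Commd10 (0.911), Zbtb11os1 (0.843) and Tmsb10 (0.840). For Igfbp5 these were Acss3 (0.904), Gm36419 (0.860) and Smarcd1 (0.853), and for Igfbp7 St3gal2 (0.867), Cadm3 (0.845) and Bmp5 (0.813).

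Of 20 other genes of IGF signalling, 14 were tested. The ligand Igf1 was at 364 to 843 CPM, and its change against BDF1 in replicates 1 to 3 was 0.45 in Space pups (SE 0.202, edgeR adjusted p = 0.230) and 0.22 in Ground pups (SE 0.202, adjusted p = 0.640). Igfals, the acid labile subunit that joins Igfbp3 in the circulating complex, changed there by 0.28 and 0.37 (adjusted p = 0.583 and 0.487). The receptors Igf1r (0.12 and 0.14) and Igf2r (-0.13 and -0.17) were not called in any comparison of groups. Irs2, the insulin receptor substrate, was lower in Space pups of replicates 1 to 3, at 18.4, 19.8 and 17.6 CPM beside 25.0, 53.6 and 33.5 CPM in BDF1 mice (log2 change -1.01, SE 0.273, edgeR adjusted p = 0.0445), and in the mean of both sets (-0.67, adjusted p = 0.0311).

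In Ground pups of replicates 4 to 6, Igf2 (4.92, SE 0.946, edgeR adjusted p = 0.00300) and Ghr (2.39, SE 0.703, adjusted p = 0.0306) were higher than in BDF1 mice. Ghr was also higher in the mean of both sets (1.53, adjusted p = 0.0440). These are the genes raised in Ground replicates 5 and 6, while Ground replicate 4 was at 0.934 CPM of Igf2 and 446 CPM of Ghr. These 2 of 14 stand beside 15.2% of all genes called in that comparison. In replicates 4 to 6 against 1 to 3, 6 of the 14 were higher and 3 lower, beside 38% of all genes called. Igfbpl1, the IGF binding protein-like gene of this list, had no count in any library.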

How the data were processed

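Liver RNA of 18 mice was sequenced on an Illumina NextSeq instrument from stranded mRNA libraries, per the labels. The deposited file holds raw read counts for each gene, which the authors made with bcl2fastq 2.20, cutadapt 4.6, HISAT2 2.2.1 and HTSeq 2.0.2 on mm10 according to the submitters' processing notes. The methods of the study name GENCODE M21 for RNA sequencing done with another kit, so the annotation of these counts is uncertain, and reads shared between genes may be split in ways not checked here. Of the 32285 gene identifiers, 32158 were found in GENCODE M21, from which positions and exon lengths were taken. The promoter sequences came from RefSeq (GRCm38.p6).

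Groups and replicate numbers came from the labels. After filterByExpr and TMM scaling, counts were fitted with edgeR 4.0.16 (R 4.3.3) in a quasi-likelihood model with a mean for each of the 6 combinations of group and replicate set over all 18 libraries. P-values were two-sided and adjusted by the Benjamini-Hochberg method over all 13356 genes, and genes under 0.05 were called. Total counts per library, 15407450 being the lowest, limit counting error, while the errors of the fit also hold the spread between animals. Log2 CPM for the genes most alike used a prior count of 2. For the other correlations 0.1 CPM was added before taking logs, and p-values came from 100000 permutations inside the 6 sets, two-sided. Simulated data were used to test the fit of Space against BDF1 in replicates 1 to 3, with 200 genes changed. It recovered 63% of changes of 2-fold and 88.5% of changes of 4-fold.

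The members and the gene lists were chosen with earlier results of these data known. The genes named were the 7 members, called genes of the IGF signalling list with Igf1, Igfals, Igf1r and Igf2r, up to 3 examples by adjusted p of each other list, and the 3 genes most alike to each member with a mean of at least 1 CPM. One example of the insulin-induced list is not reported here. Xist, Serpina6, Dbp, Asgr1, Upk1b and Wt1 are outside this rule and were named after their values were seen. Alternatives were DESeq2 1.42.0, its size factors, voom in limma 3.58.1, total counts, removal of the 10 most abundant genes, other filters, each replicate set alone, group alone, the replicate number as a block, and leaving out each library. Leaving out the 3 pup libraries highest in Serpina6 was added after the data were seen. Libraries of a group differed by a chi-square of at least 10.5 per gene, so none was taken for a repeat of another.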

Additional observations from a re-analysis of the deposited data

Results flagged for a closer look

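Igfbp4 of Space replicate 4 stood far from the other 5 Space libraries. It was at 2868 CPM, and its gap to the nearest library (1552 CPM) was 0.742 of the whole range of the group, above the critical value of Dixon's test for 6 samples. The test was run on 21 sets of 6 libraries (7 genes in 3 groups), of which it would by chance mark about 1.05, and it marked 1. The 6 libraries pool both replicate sets, which differed in Igfbp4, so they are not 6 draws from one population as the test assumes. The Ground group, with a pair of high libraries, could not be marked by it.

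The change of Igfbp2 in Space pups against BDF1 mice differed between the replicate sets. The change in replicates 4 to 6 minus that in replicates 1 to 3 was 1.14 on the log2 scale (SE 0.209, edgeR adjusted p = 0.00711). All 3 Space libraries of replicates 1 to 3 were below all 3 BDF1 libraries, while in replicates 4 to 6 they overlapped. The sets differ in Xist and in clock genes at once, so what goes with this difference cannot be told apart.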

How the results depend on the processing

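No called change of the 7 genes reversed under any alternative. Igfbp2 in Space pups of replicates 1 to 3, its difference between the sets, and the differences of Igfbp1, Igfbp2 and Igfbp4 between replicates 4 to 6 and 1 to 3 kept their calls under every alternative that was run. Other counts of the 7 genes called moved as follows. Space against BDF1 in the mean of both sets gave 1 gene, but 0 with group alone, 2 with limma voom, total counts, no filter on low counts or without the 3 pup libraries highest in Serpina6, 3 with a mean of at least 1 CPM and 4 with DESeq2, and 0 to 3 with each library left out. Ground against BDF1 in the mean gave 2, but 1 with no filter on low counts or the replicate block and 0 with group alone or without the 3 pup libraries highest in Serpina6, and 0 to 2 with each library left out. Total counts gave 2 there as well, with Igfbp2 called in place of Igfbp7. In replicates 4 to 6 against 1 to 3 the count was 4, 3 with total counts or without the 3 pup libraries, 5 with limma voom and 4 to 5 with each left out. In replicates 1 to 3, Ground against BDF1 gave 1, but 0 with total counts or the replicate block and 2 with DESeq2 (0 to 1 with each library left out), and Space against BDF1 gave 2, but 3 with DESeq2, with the 9 libraries of the set alone or without the 3 pup libraries (1 to 3 with each left out). Ground against BDF1 in replicates 4 to 6 gave 0, but 3 with total counts (0 to 2 with each left out, 2 without Ground replicate 4). The difference between sets gave 1 in Space against BDF1, 2 with total counts and 1 to 2 with each left out, and 0 in Ground against BDF1, 1 with total counts and 1 without the 3 pup libraries. Space against Ground in the mean gave 0, and 1 (Igfbp3) without Ground replicate 2. The cause of these shifts was not tested.

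Same-numbered libraries of different groups had correlations of their residuals from -0.694 to 0.320 over 18 pairs, with a median of -0.044. Libraries with different numbers had -0.414 to 0.583 over 36 pairs, with a median of 0.0019. Residuals inside sets of 3 are tied to each other, so these values cannot show whether the numbers pair the animals. With the replicate block the calls of Igfbp7 in Ground pups of replicates 1 to 3 (0.54, adjusted p = 0.0543) and of Igfbp1 in the Ground mean (1.68, adjusted p = 0.0505) were lost, and Igfbp2 in Space pups of replicates 1 to 3 was kept (-0.92, adjusted p = 0.00547).

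Over all genes the number called ranged widely: 201 to 1207 for Space against BDF1 in replicates 1 to 3 (620 as reported) and 570 to 4978 in replicates 4 to 6 (1592), 35 to 709 for Ground against BDF1 in replicates 1 to 3 (257) and 895 to 6136 in replicates 4 to 6 (2031). It was 488 to 4508 (1724) and 489 to 4639 (1950) for the means, 221 to 849 (426) and 132 to 1501 (366) for the differences between sets. Between Space and Ground pups it was 0 to 76 (1), 0 to 119 (3), 0 to 536 (3) and 0 to 30 (0). Total counts shifted the median of all genes in replicates 4 to 6 to -0.39 in Space pups and -0.46 in Ground pups. Depth limits Igfbp6 most, at 1 to 68 counts a library.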
